A study of Saccharomyces cerevisiae with 6 samples.

Results

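Heme synthesis and heme regulation were followed through 10 genes: the enzymes encoded by HEM1, HEM2, HEM3, HEM4, HEM12, HEM13, HEM14 and HEM15, the transcription factor gene HAP1 and the heme oxygenase gene HMX1. They were chosen by name, and all 10 were found among the 6445 genes listed in each library and among the 6125 genes tested. They were compared between a β-carotene-producing budding yeast with the genotype label CrtI/E/YB, which names introduced carotenoid genes, called the producer here, and CEN.PK2-1C, a laboratory strain labelled WT and called the parent, with 3 libraries for each. Both strains grew for 18 h in YPD, a rich glucose medium, at 30 °C and 250 rpm, and stranded mRNA libraries were made from cell pellets. The labels give neither the promoters and sites of the introduced genes nor the number of clones. Nor do they state that the replicates were grown apart, and the p-values therefore speak only of the spread among the 6 libraries, part of which may be technical.

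Heme is an iron porphyrin that serves cytochromes, catalases, cytochrome P450 enzymes and oxygen sensing in yeast. Its synthesis begins in the mitochondrion, where Hem1 joins glycine and succinyl-CoA to 5-aminolevulinate, continues in the cytosol with Hem2, Hem3, Hem4, Hem12 and Hem13, and ends in the mitochondrion with Hem14 and Hem15, the ferrochelatase that inserts iron. Hap1 is a zinc-finger activator that heme switches on, and one of its targets, ROX1, encodes a repressor of genes used at low oxygen, HEM13 among them. Hmx1 breaks heme down and releases its iron, and its gene belongs to the iron regulon of the activator Aft1.

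Library totals were 56.8, 58.3 and 57.0 M estimated counts (M, 1e6) for the producer, against 57.5, 48.7 and 48.4 M for the parent. In the producer GAL80 had 0, 0 and 2 counts, against 6267, 4941 and 4891 in parental libraries, a difference that the labels do not mention. Genes of mating type a (MFA1, MFA2, STE2, STE6 and BAR1) summed to between 563 and 643 CPM (counts scaled to a library of 1e6) in producer libraries and between 580 and 608 CPM in parental libraries. Those of mating type alpha (STE3 and both MF(ALPHA) genes) summed to between 26.9 and 29.5 CPM in producer libraries and between 24.1 and 30.6 CPM in parental libraries. Of these 8 genes 0 passed the edgeR test described below (2 at an unadjusted p under 0.05, and 2 in DESeq2). The shares over all tested genes were 1.14% in that test, 27.3% at an unadjusted p under 0.05 and 13.7% in DESeq2. Scores on the leading principal component, with 60.1% of the variance, were -14.6, -13.3 and -10.3 for producer libraries and 3.70, 21.7 and 12.8 for parental libraries. Parent replicate 1 thus lay nearest to the producers, and it decides several calls given below.

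HMX1 and HEM13 are shown by their upstream sequence because binding sites for the heme and iron regulators are known from such regions. Windows of 500 bases before the start codon were searched on both strands in RefSeq's R64 assembly. The Hap1 motif, a pair of CGG triplets in the same orientation with TA between them, was found before 0.35% of 6000 genes and, among the members, before HMX1. The Aft1 core GCACCC was found before 7.62% of genes and, among the members, before HMX1 and HEM1. The stretch before HMX1 (chrXII:553917-554137, minus strand, 460 to 240 bases before the start codon) carries both, in capitals, first the Aft1 core as its reverse complement and then the Hap1 motif:
HMX1: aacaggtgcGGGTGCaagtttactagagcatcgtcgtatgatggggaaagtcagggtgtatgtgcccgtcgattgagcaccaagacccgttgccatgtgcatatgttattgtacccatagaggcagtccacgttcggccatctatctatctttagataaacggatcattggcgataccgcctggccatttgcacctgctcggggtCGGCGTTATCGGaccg
The Rox1 core ATTGTT, in capitals, stands at 2 places before HEM13, on the plus strand at chrIV:546152-546196 and chrIV:546441-546485:
HEM13 distal: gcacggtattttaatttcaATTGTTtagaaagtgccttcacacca
HEM13 proximal: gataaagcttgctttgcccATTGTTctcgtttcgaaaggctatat
Such a short core was found before 48.9% of all genes and before 7 of the 10 members. CCAAT, the element bound by the Hap2/3/4/5 complex, was found before 8 members and 62.4% of all genes, and the motif of Gal4, CGG and CCG with a fixed gap between them, before 0 members and 2.98% of all genes. A match describes the letters and does not show that a factor binds there.

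None of the 10 heme genes differed past the threshold between the producer and its parent. In edgeR's quasi-likelihood test, with Benjamini-Hochberg adjustment over all tested genes and a threshold of 0.05, 0 members were higher and 0 lower, where 1.14% of all tested genes were called (0.8% higher and 0.343% lower). At an unadjusted p under 0.05 there were 3 members, HEM4, HEM12 and HMX1, against 27.3% of all genes. DESeq2 called 2, HEM12 with an adjusted p of 0.0437 and HMX1, where it called 13.7% of all genes, and limma-voom called 0, where it called 1.04%. Members called were also 0 in each of the settings that follow. There edgeR called 1.22% of all genes with RLE factors, 1.34% with upper-quartile factors, 0.882% with library totals only, 1.1% without a filter and 1.33% with at least 10 CPM in 3 libraries. It called 0.163% with the library total as a covariate, 0.358%, 0.244% and 0.343% without producer replicate 1, 2 or 3, and 1.42% and 0.261% when parent replicate 2 or 3 was left out. With the replicate number as a block it called 1.7%. The log2 fold change of producer over parent was positive for 5 members and negative for 5, with a median of 0.04, against -0.01 over all genes. The median size of the change, without its sign, was 0.11 for the members and 0.14 for all genes.

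The intervals set limits on what could have been missed. For 9 members the 95% interval of the fold change, not adjusted for the number of genes, lay within 1.5-fold in both directions, the exception being HMX1, which reached 1.68-fold. It ran from 0.866 to 1.14 for HAP1, from 0.884 to 1.08 for HEM14 and from 0.999 to 1.38 for HEM1. In bulk RNA a shift in all cells and a larger shift in some of them cannot be told apart. The intervals cover the spread between libraries and not the GC-content trend described below. Counts were never limiting, since the lowest count of a member in any library was 2216.

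**Figure D1:**
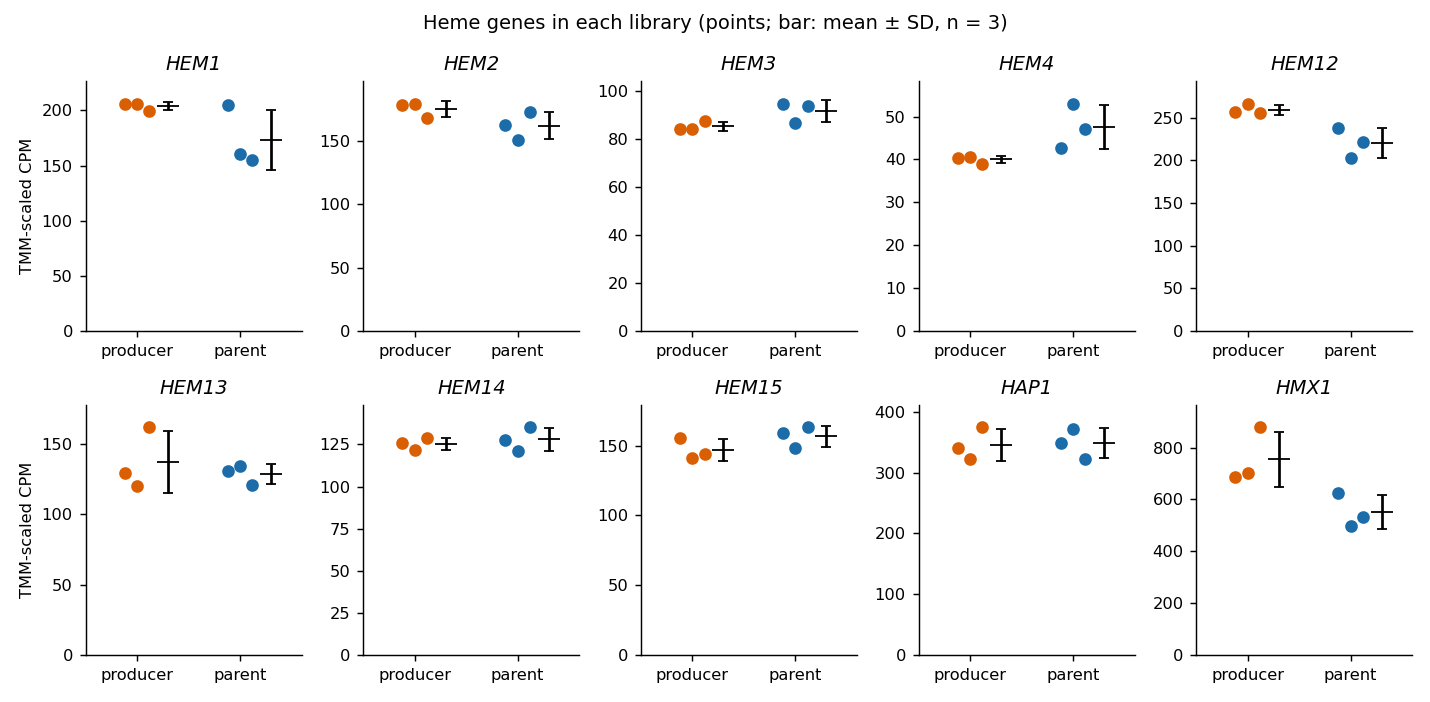
TMM-scaled CPM of each heme gene in the 3 producer and 3 parent libraries (points), with the mean and SD beside them, each vertical axis starting at 0. HMX1 and HEM12 were higher in all 3 producer libraries than in any parental one, HEM4 was lower, and the strains overlapped in the other 7 genes.

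HEM1, the enzyme that makes 5-aminolevulinate (YDR232W, chromosome IV, 927452 to 929098, plus strand), stood at 206, 206 and 199.5 CPM in producer libraries and at 205, 161 and 155 CPM in parental libraries. Parent replicate 1 lay among the producers, so the strains overlapped. The means were 204 ± 3.67 CPM in producer libraries and 174 ± 27.2 CPM in parental libraries (SD, n = 3 each), with a log2 fold change of 0.23 ± 0.10 (SE) and an edgeR adjusted p of 0.186. HEM2, 5-aminolevulinate dehydratase (YGL040C, chromosome VII), had 178, 179 and 168 CPM in producer libraries and 163, 151 and 173 CPM in parental libraries, a log2 fold change of 0.11 ± 0.07. The ranges of the strains overlapped there too.

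HEM3, porphobilinogen deaminase (YDL205C, chromosome IV), had 84.4, 84.3 and 87.6 CPM in producer libraries against 94.7, 86.5 and 93.7 CPM in parental libraries. Its log2 fold change was -0.10 ± 0.07 (SE), and producer replicate 3 lay above parent replicate 2. HEM4, uroporphyrinogen III synthase (YOR278W, chromosome XV, 842817 to 843644, plus strand), was the member with the lowest level. It had 40.4, 40.6 and 39.0 CPM in producer libraries and 42.7, 53.0 and 47.1 CPM in parental libraries, so that the strains did not overlap. Its log2 fold change was -0.25 ± 0.09 with an edgeR adjusted p of 0.133. Groups that did not overlap were found for 3 of the 10 members and for 33.7% of all tested genes, so this share is not a result about the heme genes.

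HEM12, uroporphyrinogen decarboxylase (YDR047W, chromosome IV, 551860 to 552948, plus strand), stood at 256, 266 and 256 CPM in producer libraries and at 237, 203 and 222 CPM in parental libraries. Every producer library lay above every parental one, with a log2 fold change of 0.23 ± 0.07 (SE) and an edgeR adjusted p of 0.104. HEM13, coproporphyrinogen III oxidase, which needs oxygen and is derepressed when oxygen is low (YDR044W, chromosome IV, 546642 to 547628, plus strand), had 129, 120 and 162 CPM in producer libraries and 131, 134 and 121 CPM in parental libraries. Its log2 fold change was 0.09 ± 0.11, and producer replicate 3 alone lay above the parental range. Without that library the value was -0.04.

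HEM14, protoporphyrinogen oxidase (YER014W, chromosome V), had 126, 122 and 129 CPM in producer libraries and 128, 121 and 135 CPM in parental libraries, a log2 fold change of -0.03 ± 0.06 (SE). BUD25, on the other strand, overlaps the last 489 bases of HEM14 in the annotation, its intron included, and was listed at 0 counts in all 6 libraries, and no source used here says whether counting used the strand. HEM15, ferrochelatase (YOR176W, chromosome XV), had 156, 141 and 144 CPM in producer libraries and 159, 148 and 163 CPM in parental libraries, a log2 fold change of -0.09 ± 0.07. Neither gene separated the strains. Added up, the reads of the 8 enzymes came to 1176, 1159 and 1184 CPM in producer libraries and 1160, 1058 and 1109 CPM in parental libraries, and parent replicate 1 lay within the range of the producer.

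HAP1, the heme-dependent activator (YLR256W, chromosome XII, 646415 to 650923, plus strand), had 340, 322 and 374 CPM in producer libraries and 349, 373 and 323 CPM in parental libraries. The ranges nearly coincided, and the log2 fold change was -0.01 ± 0.09 (SE), with a 95% interval of -0.21 to 0.19. In the reference assembly a Ty1 element overlaps the last 100 bases of the annotated gene, and whether it lies there in these strains was not analysed here.

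HMX1, heme oxygenase (YLR205C, chromosome XII, 552724 to 553677, minus strand), had the widest difference of the 10. It stood at 687, 700 and 878 CPM in producer libraries and at 626, 498 and 533 CPM in parental libraries, with means of 755 ± 106 CPM in producer libraries and 552 ± 66.2 CPM in parental libraries (SD, n = 3 each). All producer libraries lay above all parental ones, and producer replicate 3 was the highest of the 6. The log2 fold change was 0.45 ± 0.13 (SE), a fold of 1.37 with a 95% interval of 1.12 to 1.68, and the edgeR adjusted p of 0.0891 missed the threshold. DESeq2 gave it an adjusted p of 0.00796, and over all 17 alternative settings the adjusted p ranged from 0.00796 to 0.900.

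**Figure D2:**
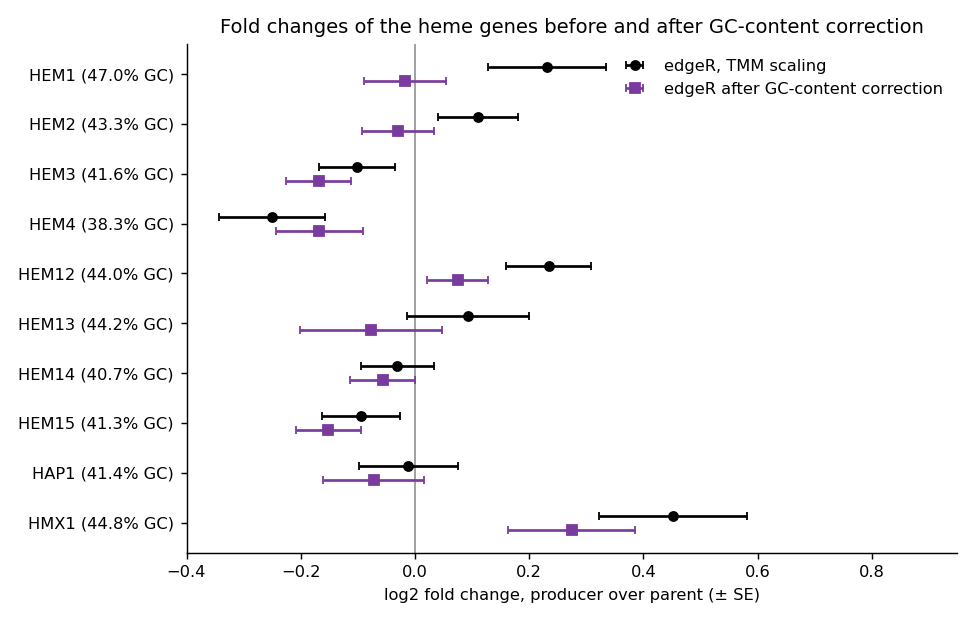
Log2 fold changes of producer over parent with standard errors from edgeR, before (circles) and after (squares) a correction for the GC content of each gene, which is printed beside its name. After the correction HEM1, HEM2 and HEM13 lay below 0 and HMX1 moved to 0.27 ± 0.11.

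Library composition moved with the strains in a way that touches these genes. Across 5668 genes with at least 5 CPM and a known GC content, which are not independent replicates, the level of a gene relative to its mean had a Spearman correlation with GC content of 0.636, 0.497 and 0.340 in producer libraries and of 0.244, -0.676 and -0.496 in the parental ones. The log2 fold change itself had a correlation of 0.661. The part of this trend in the differences between strains was not tested beyond the correction given below. Genes in the quintile with the highest GC content had a median log2 fold change of 0.20, those in the lowest quintile -0.18. The 5 members with the highest GC content, between 43.3% and 47.0%, were the 5 with positive log2 fold changes (HEM1, HEM2, HEM12, HEM13 and HMX1), and the 5 with GC contents between 38.3% and 41.6% were the 5 with negative ones.

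**Figure D3:**
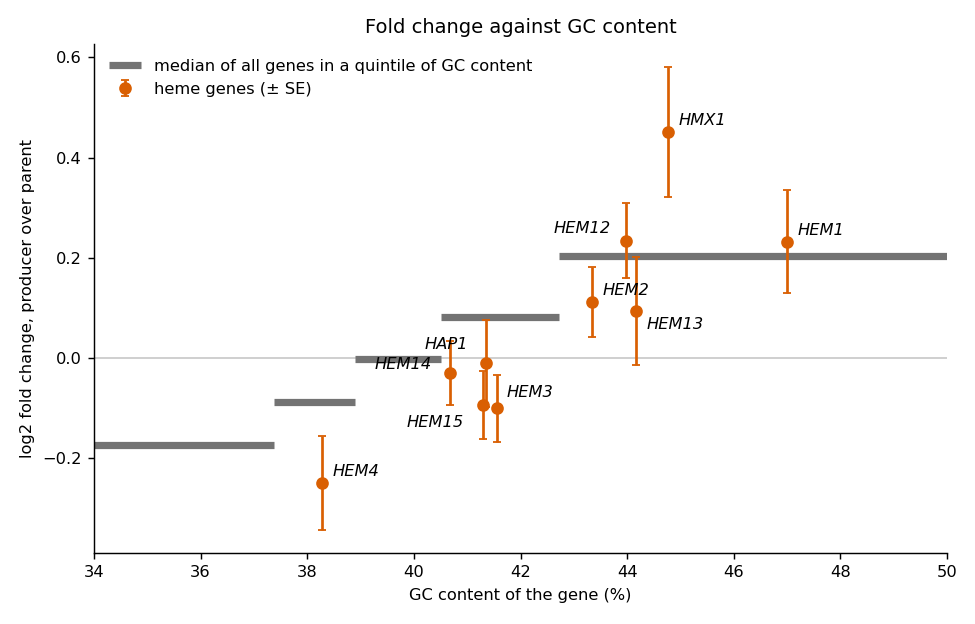
Log2 fold change of producer over parent (y axis) of each heme gene with its standard error against the GC content of the gene (x axis), beside the median of all genes in each quintile of GC content (horizontal bars, cut at the axis limits). HEM1, at 0.23, lay near the median of 0.20 of its quintile, and HMX1, at 0.45, lay above it.

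With a GC-content correction in each library, edgeR again called 0 members, where it called 1.24% of all genes. HEM1 then stood at -0.02 ± 0.07 (SE), HEM2 at -0.03 ± 0.06 and HEM13 at -0.08 ± 0.12, each with the other sign. HEM12 stood at 0.07 ± 0.05, HEM4 at -0.17 ± 0.08 and HMX1 at 0.27 ± 0.11, and 2 members were positive and 8 negative, with a median of -0.06. HEM3 stood at -0.17 ± 0.06 and HEM15 at -0.15 ± 0.06, both further from 0 than before the correction. Their edgeR adjusted p of 0.167 and 0.202 were smaller than those of HMX1 (0.227) and HEM4 (0.272). On the corrected log2 scale HMX1 lay at -0.03, 0.04 and 0.39 in producer libraries and at -0.06, -0.16 and -0.17 in the parental ones, relative to its mean. Producer replicate 3 lay apart there, while the other 2 producers lay close to parent replicate 1.

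Heme genes were called in edgeR only when 1 parental library was left out. Without parent replicate 1, edgeR called 4 members, HEM1 at 0.37, HEM12 at 0.29, HMX1 at 0.55 and HEM4 at -0.32, with adjusted p between 0.0164 and 0.0404, where it called 17.5% of all genes. Without that library and with the GC-content correction together, a setting chosen after the data were seen, 0 members and 2.59% of all genes were called, and HEM1 stood at 0.03, HEM12 at 0.08, HMX1 at 0.31 and HEM4 at -0.22.

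Levels of different genes are compared here per coding length, a scale that corrects for neither GC content nor the removal of duplicate reads. The part of either in the order below was not tested. HMX1 was the most abundant member in both strains, at 791 ± 112 CPM per kb in producer libraries and 579 ± 69.4 CPM per kb in parental libraries (SD, n = 3 each). HEM12 followed with 238 ± 5.42 CPM per kb in producer libraries and 202 ± 16.0 CPM per kb in parental libraries, and HEM2 with 170 ± 6.13 CPM per kb in producer libraries and 158 ± 10.5 CPM per kb in parental libraries. HEM13, HEM15 and HEM1 came next and could not be ordered in producer libraries, where their libraries overlapped at 139, 124 and 124 CPM per kb. In the parent HEM15, HEM13 and HEM1 stood at 133, 130 and 105 CPM per kb, each overlapping the next, and HEM1 overlapped HEM3 as well. HEM2 overlapped HEM13 in producer libraries.

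HEM3 followed at 86.8 CPM per kb in producer libraries and 93.1 CPM per kb in parental libraries. HEM14 and HAP1 overlapped each other in both strains, at 77.4 and 76.6 CPM per kb in producer libraries and at 79.1 and 77.2 CPM per kb in parental libraries. HEM4 was the lowest in both, at 48.3 ± 1.02 CPM per kb in producer libraries and 57.5 ± 6.22 CPM per kb in parental libraries. The order was thus the same in both strains except among HEM13 and HEM15, which overlapped.

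**Figure D4:**
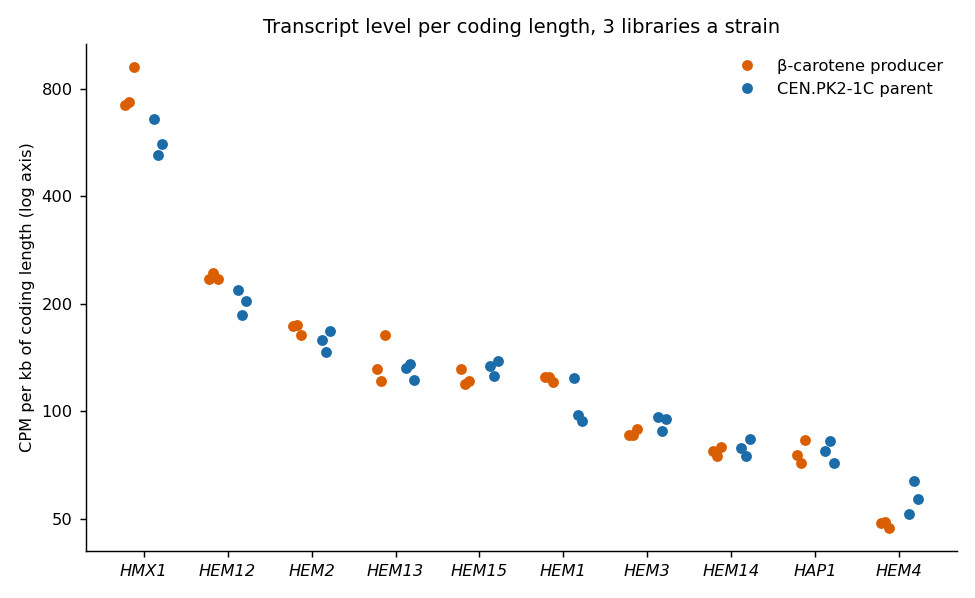
CPM per kb of coding length of each heme gene in every library (log axis), ordered by the producer mean, with the producer left of the parent. HMX1 lay above all others in both strains and HEM4 below them, while HEM13, HEM15 and HEM1 overlapped in producer libraries.

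Variation within a strain also differed between members. In the producer the coefficient of variation over the 3 libraries was between 1.80% and 7.64% for 8 members and was 16.0% for HEM13 and 14.1% for HMX1, both highest in replicate 3. In the parent it was 15.7% for HEM1, 11.99% for HMX1 and 10.8% for HEM4, and between 4.77% and 7.89% for the other 7. HEM3, HEM13, HEM14, HAP1 and HMX1 each had their highest producer value in replicate 3.

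Genes around the pathway gave 2 calls in edgeR. For the lists below, the shares over all tested genes were 1.14% in edgeR and 27.3% at an unadjusted p under 0.05. They were 13.7% in DESeq2 and 1.04% in limma-voom. Among 9 genes that supply its precursors and iron, 0 passed, with a median log2 fold change of 0.08, or -0.05 after the GC-content correction (1 at an unadjusted p under 0.05, 1 in DESeq2 and 0 in limma-voom). MRS4, a mitochondrial iron carrier, had 189, 184 and 181 CPM in producer libraries and 155, 120 and 150 CPM in parental libraries, a log2 fold change of 0.38 ± 0.10 (SE) with an edgeR adjusted p of 0.0724. LSC1, a succinyl-CoA ligase subunit, was at 0.15 ± 0.08, and YFH1, frataxin, at 0.13 ± 0.07. LSC2, the other ligase subunit, was at 0.03 ± 0.09, and KGD1, of the 2-oxoglutarate dehydrogenase that makes succinyl-CoA, at -0.10 ± 0.08. Corrected for GC content, MRS4 stood at 0.29 ± 0.07, and its adjusted p in edgeR was 0.0909. LSC1 was then at 0.07 ± 0.06, YFH1 at 0.10 ± 0.06, LSC2 at -0.05 ± 0.07 and KGD1 at -0.12 ± 0.06.

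Among 6 genes of heme a synthesis and heme attachment to cytochromes, 0 passed, with a median of 0.10, or -0.04 after the GC-content correction (1 at an unadjusted p under 0.05, 0 in DESeq2 and 0 in limma-voom). CYC3, the lyase that attaches heme to cytochrome c, was at 0.35 ± 0.12 (SE), and at -0.02 ± 0.06 after the GC-content correction. YAH1, mitochondrial ferredoxin, was at 0.23 ± 0.11, and at -0.05 ± 0.07 after the correction. COX15, heme a synthase, was at -0.11 ± 0.07, and at -0.15 ± 0.06 after the correction. Of the siroheme branch, which leaves the pathway after Hem4, MET8 was at 0.28 ± 0.09 and MET1 at 0.14 ± 0.06, and PUG1, a protoporphyrin transporter, was at 0.06 ± 0.19. After the correction MET8 was at 0.0026 ± 0.089, MET1 at 0.09 ± 0.06 and PUG1 at 0.19 ± 0.18. Of these 3 genes 0 passed in edgeR (2 at an unadjusted p under 0.05, 1 in DESeq2 and 0 in limma-voom), and their median was 0.14, or 0.09 after the correction.

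The 8 genes of the partners and repressors of heme-dependent transcription had a median of 0.21, or -0.02 after the GC-content correction, and 0 passed in edgeR (3 at an unadjusted p under 0.05, 1 in DESeq2 and 0 in limma-voom). HAP3, of the Hap2/3/4/5 complex, was at 0.27 ± 0.09 (SE), CYC8 and TUP1, which form a corepressor with each other, at 0.31 ± 0.12 and 0.23 ± 0.09, and HAP4, the complex's activating subunit, at -0.10 ± 0.07. After the correction HAP3 was at -0.02 ± 0.07, CYC8 at 0.15 ± 0.10 and TUP1 at 0.02 ± 0.06. Among 12 genes that Hap1 activates, 0 passed in edgeR, with a median of 0.02, or -0.09 after the correction (1 at an unadjusted p under 0.05, 1 in DESeq2 and 0 in limma-voom). NCP1, the cytochrome P450 reductase, was at 0.34 ± 0.11, and at 0.11 ± 0.06 after the correction. CYB2, a lactate dehydrogenase with a heme group, was at -0.18 ± 0.11, YHB1, flavohemoglobin, at -0.15 ± 0.10, and CTT1, cytosolic catalase, at -0.11 ± 0.14. Corrected for GC content, CYB2 stood at -0.23 ± 0.09, YHB1 at -0.15 ± 0.08 and CTT1 at -0.16 ± 0.13. ROX1 itself had 169, 192 and 260 CPM in producer libraries and 210, 268 and 217 CPM in parental libraries, with overlapping strains and a log2 fold change of -0.16 ± 0.16.

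Of 8 hypoxic genes that Rox1 represses, HEM13 left aside, 1 rose in edgeR, 0 fell and the other 7 missed the threshold, with a median log2 fold change of 0.08, or 0.06 after the GC-content correction. At an unadjusted p under 0.05 there were 3, while DESeq2 called 1 and limma-voom 1. The log2 fold change was positive for 5 of them and negative for 3. TIR1, a cell wall mannoprotein, rose to 19.2, 17.6 and 18.9 CPM in producer libraries, against 13.3, 10.8 and 10.4 CPM in parental libraries, a log2 fold change of 0.69 ± 0.12 (SE) with an edgeR adjusted p of 0.0415. That p was 0.0757 after the GC-content correction, with a log2 fold change of 0.43 ± 0.10. The list had 0 calls when any 1 of the producer libraries or parent replicate 3 was left out, and likewise with no scaling beyond library totals or with those totals as a covariate. ANB1, the hypoxic copy of translation factor eIF5A, had 2.13, 2.11 and 3.14 CPM in producer libraries and 1.66, 1.67 and 1.35 CPM in parental libraries, a log2 fold change of 0.65 ± 0.23 (SE) with an edgeR adjusted p of 0.116. After the correction ANB1 was at 0.44 ± 0.24 with 0.347. Its reads may be shared with its near-identical paralog HYP2. FET4 was at 0.20 ± 0.07, CYC7 at 0.08 ± 0.08 and AAC3 at 0.07 ± 0.21. OLE1 was at -0.18 ± 0.09, COX5B at -0.12 ± 0.09 and HMG2 at -0.04 ± 0.08. Among 17 genes of proteins that bind heme or hold a heme-binding domain, which share CYC1, CYB2, CTT1, YHB1, OLE1 and others with the lists above, 0 passed in edgeR, with a median of 0.02, or -0.08 after the correction (3 at an unadjusted p under 0.05, 3 in DESeq2 and 0 in limma-voom). CYB5, cytochrome b5, was at -0.34 ± 0.09, CTA1, peroxisomal catalase, at -0.34 ± 0.09 and SCS7, a ceramide hydroxylase, at 0.29 ± 0.10. Corrected for GC content, CYB5 stood at -0.28 ± 0.08, CTA1 at -0.44 ± 0.09 and SCS7 at 0.19 ± 0.07. Their adjusted p in edgeR were then 0.128, 0.0563 and 0.193, in that order.

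HMX1 is also an iron regulon gene, and 12 of 13 other genes of that list could be tested, ARN2 being listed at 0 in all 6 libraries. In edgeR TIS11 rose, 0 fell and the other 11 missed the threshold. TIS11, an RNA-binding protein that lowers the mRNAs of many iron-consuming proteins, had 153, 168 and 167 CPM in producer libraries and 85.9, 65.1 and 91.4 CPM in parental libraries, a log2 fold change of 1.01 ± 0.12 (SE) with an edgeR adjusted p of 0.00534. With the library total as a covariate 0 genes of the list passed. FET3, the ferroxidase of iron uptake, was at 0.71 ± 0.16 (SE) and SIT1, a siderophore transporter, at 1.00 ± 0.22, with edgeR adjusted p of 0.0667 and 0.0659. Corrected for GC content, TIS11 stood at 0.97 ± 0.10, FET3 at 0.55 ± 0.12 and SIT1 at 0.99 ± 0.22, with edgeR adjusted p of 0.00219, 0.0637 and 0.0951. The smallest changes of the list were FRE2 at 0.06 ± 0.08, FRE1 at 0.17 ± 0.10 and FIT1 at 0.23 ± 0.12. After the correction they stood at 0.09 ± 0.08, 0.32 ± 0.10 and -0.04 ± 0.15, in that order. Of the 12 genes 9 had an unadjusted p under 0.05, 8 passed in DESeq2 and 1 in limma-voom. The shares over all genes were 27.3%, 13.7% and 1.04% in that order. Their median log2 fold change was 0.52, or 0.41 after the GC-content correction, and HMX1 lay below both, at 0.45, or 0.27 after the correction. Without parent replicate 1, 9 of the 12 iron genes, 2 of the 8 hypoxic genes and 17 genes of all these lists together passed, where 17.5% of all genes did. With the GC-content correction added to that omission, 3 iron genes, 0 hypoxic genes and 3 genes of all lists passed, where 2.59% of all genes did. Without parent replicate 2, 4 iron genes passed, where 1.42% of all genes did. On the log2 scale, with each gene's mean over the 6 libraries set to 0, the median of the list was 0.27, 0.34 and 0.28 in producer libraries and -0.06, -0.63 and -0.28 in parental libraries, while HMX1 was at 0.10, 0.13 and 0.45 in producer libraries and at -0.04, -0.37 and -0.27 in parental libraries. Parent replicate 2 was the lowest library for the list median and for HMX1, but the highest was producer replicate 2 for the list and producer replicate 3 for HMX1.

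**Figure D5:**
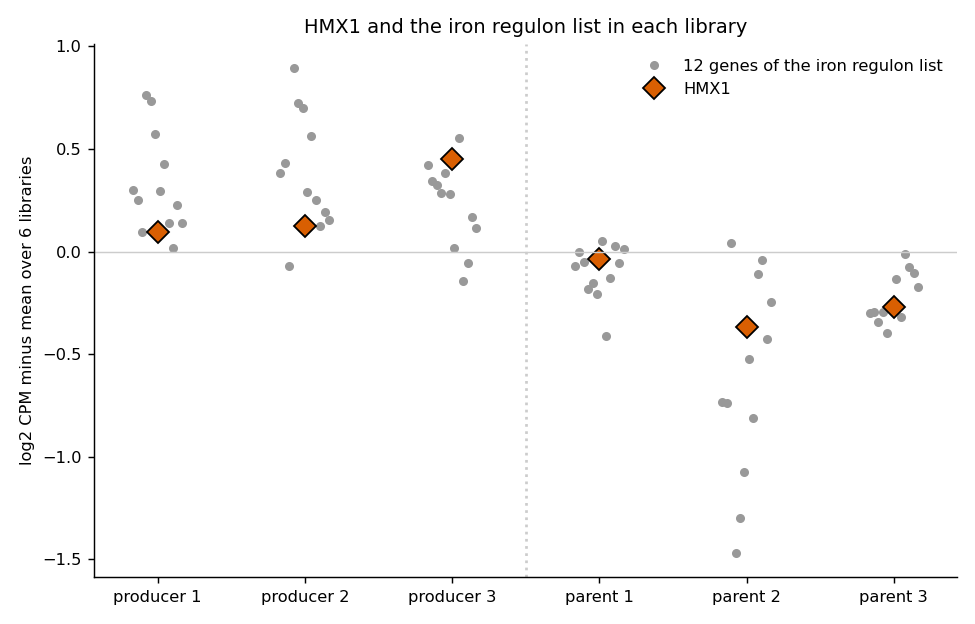
Log2 CPM minus the mean over the 6 libraries (y axis) of HMX1 (diamonds) and of 12 iron regulon genes (dots) in each library (x axis). HMX1 was highest in producer replicate 3 and lowest in parent replicate 2, where the median of the iron genes was lowest as well.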

How the data were processed

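RNA of 6 yeast cell pellets, 3 libraries a strain, was sequenced by the authors. Each deposited table gives whole estimated counts by gene, made from StringTie files after duplicate removal, per the file headers. The submitters' processing notes list HISAT2, SAMtools, Picard, FastQC and DESeq2 and the build sacCer3, with no versions. Removing duplicates can lower abundant genes most; that was not tested. Whole values needed no rounding. Tables were joined by gene name, and 6129 of 6445 names matched RefSeq's R64 annotation, the assembly of sacCer3, which gave coordinates, coding lengths and GC content. Intervals cover the spread between libraries.

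Strains were compared in edgeR 4.0.16 (R 4.3.3) by its quasi-likelihood F test, which is two-sided. Low genes were removed by filterByExpr, libraries scaled by TMM and dispersions estimated robustly; strain was the only term, and p-values were adjusted over 6125 genes. The SE is the size of the log2 fold change divided by the square root of F. Alternatives were other scalings, other filters, the replicate number as a block, the library total as a covariate, each library left out, DESeq2 1.42.0, limma-voom (limma 3.58.1) and a GC-content correction (loess of log2 CPM, span 0.5). The test was checked on simulated counts. Members, lists and alternatives were chosen with earlier results of these data known. Beside the members, the text names in each list the genes that passed, otherwise up to 3 with the smallest p and up to 2 with the highest level. ROX1, FET3, SIT1, FIT1, FRE1, FRE2 and the hypoxic genes other than TIR1 were named beside this rule after their values were seen. The 5 genes nearest to HMX1 by root mean square difference are named too.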

Additional observations from a re-analysis of the deposited data

How the results depend on the processing

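Of the heme genes, 0 passed in edgeR under all settings other than leaving out libraries, where the count ranged from 0 to 4 (4 without parent replicate 1), and DESeq2 gave 2. Over all genes 70 passed; the count was 842 in DESeq2, 10 with the library total as a covariate, 155 with the GC-content correction without parent replicate 1, and between 15 and 1077 with a library left out. It was 1077 when parent replicate 1 was dropped, 22, 15 and 21 when producer replicate 1, 2 or 3 was, and 16 when parent replicate 3 was. Of the genes in the supporting lists 2 passed; 1 did with library totals only, 0 with the covariate, 1 after the GC-content correction, 15 in DESeq2 and between 1 and 17 with a library left out. With the GC-content correction HEM1 was at -0.017, HEM2 at -0.029 and HEM13 at -0.077; HEM2 was at -0.073 and HEM13 at -0.12 when parent replicate 1 was left out as well. With a library left out HAP1 ran from -0.073 to 0.040 (above 0 without producer replicate 1 or 2 or parent replicate 2), HEM13 from -0.043 (without producer replicate 3) to 0.18 and HEM14 from -0.068 to 0.012 (without parent replicate 3). HEM3, HEM4, HEM12, HEM15 and HMX1 kept their sign in all 17 settings. The causes of these changes were not tested. With a replicate block 0 heme genes and 104 genes in all passed. Same-numbered libraries of the strains had correlations of 0.238, -0.231 and -0.459 in their deviations from the mean of each strain. With 3 libraries a strain such deviations cannot show whether same-numbered libraries were handled together, and the labels do not say.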

Other observations

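Of the 20 nearest annotated genes, 1 on each side of a member, 16 were tested and 0 passed in edgeR (3 at an unadjusted p under 0.05, 2 in DESeq2 and 0 in limma-voom). Over all tested genes the shares were 1.14% in edgeR, 27.3% at an unadjusted p under 0.05, 13.7% in DESeq2 and 1.04% in limma-voom. The log2 fold changes in this paragraph are given without the GC-content correction. BAP3, an amino acid permease gene 1283 bases before HEM12, was at 0.46 ± 0.13 (SE) with an edgeR adjusted p of 0.0901, and ENT2, an epsin-like gene 900 bases from HMX1 on the side of its start, at 0.33 ± 0.13 with 0.151. RPC11, an RNA polymerase III subunit gene 349 bases after HEM13, was at -0.40 ± 0.12 with 0.0984, and HEM13 itself at 0.09 ± 0.11. RFM1, 53 bases after HEM4 on the other strand, was at -0.28 ± 0.15 with 0.261, and HEM4 itself at -0.25 ± 0.09. Whether RFM1 and HEM4 share reads was not tested. The log2 fold changes of the remaining tested neighbours lay between -0.27 and 0.20. Both ends were low genes, SUP54 with means of 0.30 CPM in the producer and 0.36 CPM in the parent, and YLR255C with 1.62 and 1.41 CPM.

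Over the 6 libraries, the 5 genes of 5539 with at least 10 CPM whose log2 levels followed those of HMX1 most closely were YIL024C, MLO1, YLL053C, ALP1, a basic amino acid permease gene, and DAL1, allantoinase. Their root mean square differences from HMX1 were between 0.0647 and 0.0735 on the log2 scale. Their log2 fold changes lay between 0.38 and 0.47, close to that of HMX1, as the choice by likeness in the same libraries fixes, so no test is given for them.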
